A study of Mus musculus with 6 samples.

Results

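Adipokine, lipid uptake and lipid droplet genes were examined in bone marrow stromal cells, as a set of 10 named genes. The set holds the secreted proteins Adipoq and Cfd, the uptake and transport genes Lpl, Cd36, Fabp4 and Apoe, the droplet coat genes Plin1 and Plin2, and the lipase genes Pnpla2 and Lipe. Of the 10 genes, 9 had a probe set that names that gene alone, 1 each, among 19938 genes with a value. Cfd was not analysed here. Cd36 was dim, below the level of 6.00 on the log2 scale under which the lowest 33.3% of genes were left out, so 8 of the 10 genes were tested among 13292.

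The cells were Cxcl12-abundant reticular (CAR) cells, perivascular stromal cells rich in the chemokine Cxcl12, sorted by flow cytometry from femur and tibia marrow. All animals were C57BL/6 mice 7 weeks old of the genotype Dmp1-Cre Cxcl12-gfp/+, so both groups carried the Cre transgene and the gfp allele and differed by whether Dmp1-Cre had targeted the cell. Dmp1 encodes a bone matrix protein made late in osteoblast maturation and in osteocytes, and Cre driven by its regulatory sequence marks any cell in which that sequence has been active. Each group had 3 arrays, 1 per sample. The sources used here do not state how targeting was read out in the sort. Per the design text the cells came from 3 mice, so arrays of the groups may be paired, but the labels do not tie arrays of the groups to the same mouse. The main fit took the arrays as unpaired. P-values therefore measure the spread between these samples, which includes any spread between mice.

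CAR cells are known for expressing genes of the fat cell lineage without being filled with fat. Lipoprotein lipase at the cell surface or on nearby capillaries frees fatty acids from lipoproteins, Cd36 helps to take them up, and Fabp4 carries them inside the cell. Perilipins coat the droplets in which triglyceride is stored, and adipose triglyceride lipase (Pnpla2) and then hormone-sensitive lipase (Lipe) break it down. Fat cells also secrete adiponectin (Adipoq), a hormone, and adipsin (Cfd, complement factor D), a protease.

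In targeted cells every one of the 8 tested genes had a lower mean than in non-targeted cells, and none passed the test. The differences ran from -0.69 for Fabp4 to -0.09 for Apoe on the log2 scale, with a median of -0.20, beside a median of -0.01 over all 13292 genes. Without single arrays the median of the 8 genes ran from -0.38 (without non-targeted replicate 3) to -0.17 (without non-targeted replicate 1). By sign alone, 51.1% of all genes tested were lower in targeted cells. Cd36, dim and not tested, had a higher mean there (log2 difference 0.29). With limma, 0 of the 8 genes and 0% of all genes had an adjusted p under 0.05. At an unadjusted p under 0.05, limma gave 0 of the 8 genes and 634 of all genes (4.77%). Leaving out targeted replicate 1 raised that count over all genes to 1116, and leaving out non-targeted replicate 3 brought it to 408. Adjusted p was 0.9998 for each of the 8 genes. Pnpla2 was the one gene of the 8 whose 3 targeted arrays all lay below the 3 non-targeted arrays, an order found in 5.76% of all genes tested. The set was put together with earlier results of these data known, so the shared direction is a description. On bulk arrays, fewer cells expressing a gene and less RNA of it per cell cannot be told apart.

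**Figure D1:**
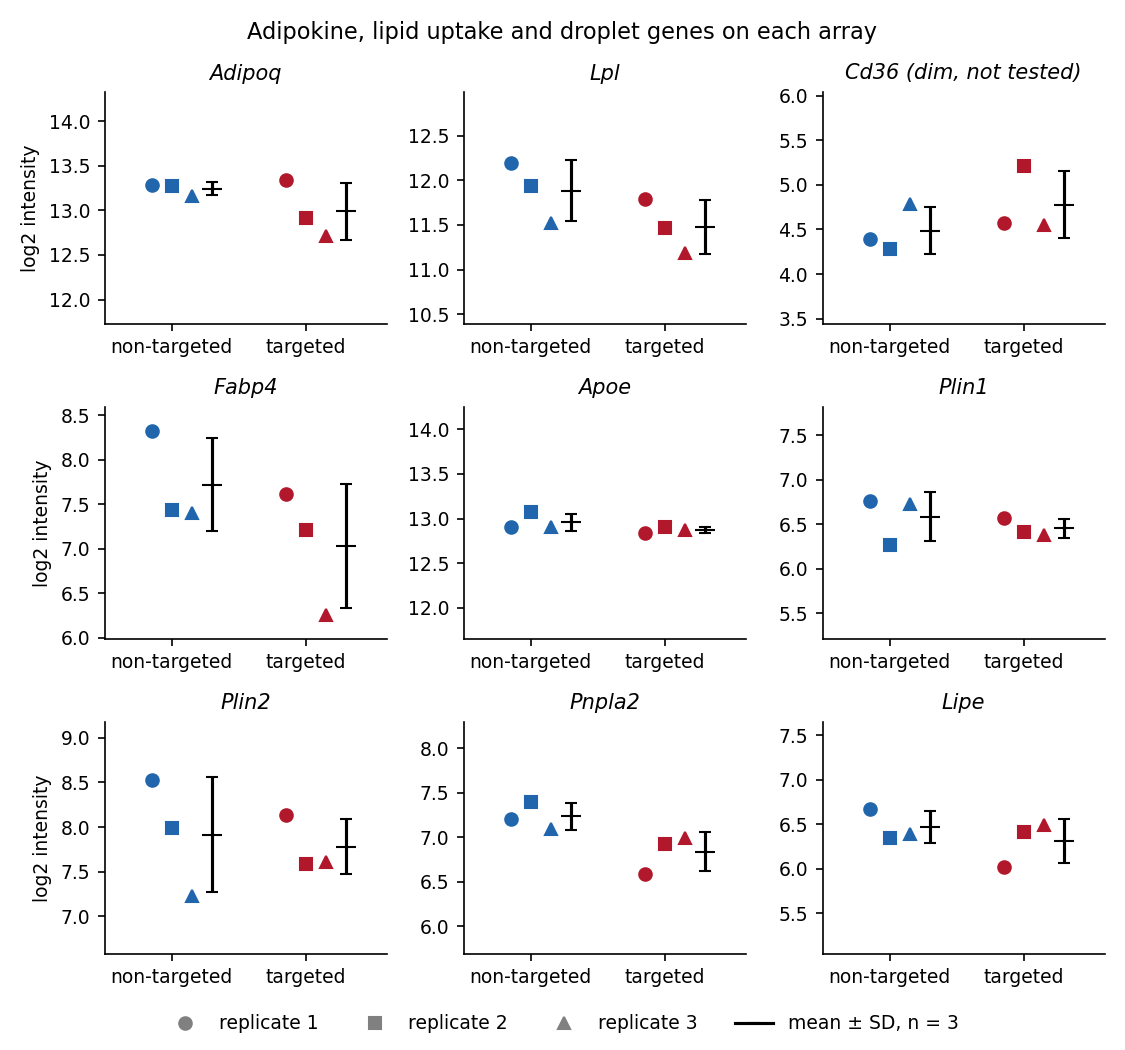
Log2 intensity of 9 genes on each of the 6 arrays, in panels that span the same range of log2 units but start at different levels. Symbols mark the replicate number, and the bar beside them is the mean ± SD of 3 arrays. Only Pnpla2 shows no overlap between the groups, and Fabp4 and Plin2 have the widest spread within a group.

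Adipoq encodes adiponectin, a circulating hormone that raises insulin sensitivity. Its log2 intensity was 13.34, 12.91 and 12.72 on targeted arrays 1 to 3 and 13.29, 13.28 and 13.16 on non-targeted arrays 1 to 3. The groups overlapped, because targeted replicate 1 was the highest of all 6 arrays while the other 2 targeted arrays were the lowest. The means were 12.99 ± 0.32 and 13.24 ± 0.07 (SD, n = 3 each). The log2 difference was -0.25 (SE 0.19, 95% interval -0.69 to 0.19), or 1.19-fold lower in targeted cells. Without targeted replicate 1 it was -0.43 and without targeted replicate 3 it was -0.11, and neither passed.

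Lpl encodes lipoprotein lipase, which splits the triglyceride of circulating lipoproteins. It was at 11.79, 11.46 and 11.19 on targeted arrays and at 12.20, 11.94 and 11.52 on non-targeted arrays. The lowest non-targeted array, replicate 3, lay within the targeted range, and the 2 lowest arrays of all were targeted. The means of 11.48 ± 0.30 and 11.89 ± 0.34 (SD, n = 3 each) differed by -0.41 (SE 0.23, 95% interval -0.95 to 0.13), or 1.33-fold. Leaving out single arrays gave -0.59 without non-targeted replicate 3 and -0.25 without non-targeted replicate 1 at the extremes.

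Fabp4, the fatty acid binding protein of fat cells, macrophages and capillary endothelium, had the largest mean difference of the set. It was at 7.61, 7.21 and 6.26 on targeted arrays and at 8.32, 7.43 and 7.40 on non-targeted arrays. Non-targeted replicate 1 stood highest and targeted replicate 3 lowest, and targeted replicate 1 lay above both lower non-targeted arrays. The means were 7.03 ± 0.70 and 7.72 ± 0.52 (SD, n = 3 each), a log2 difference of -0.69 (SE 0.39, 95% interval -1.59 to 0.21), or 1.61-fold lower in targeted cells. The difference was -0.31 without targeted replicate 3 and -0.98 without targeted replicate 1.

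Apoe, a lipoprotein component that binds receptors of the LDL family and carries cholesterol out of cells, hardly differed. It was at 12.84, 12.90 and 12.87 on targeted arrays and at 12.91, 13.07 and 12.90 on non-targeted arrays. The highest targeted array and the lowest non-targeted array were level at 12.90, and non-targeted replicate 2 was the highest. Its log2 difference was -0.09 (SE 0.14, 95% interval -0.41 to 0.24), and within-group SDs were 0.03 and 0.09. It was -0.12 without non-targeted replicate 3 and -0.03 without non-targeted replicate 2.

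Cd36, a scavenger receptor that takes up fatty acids and is found on macrophages, capillary endothelium and platelets, was the one gene of the set with a higher mean in targeted cells, at a dim level. It was at 4.57, 5.21 and 4.55 on targeted arrays and at 4.40, 4.28 and 4.78 on non-targeted arrays. The groups overlapped, and targeted replicate 2 stood above the rest. The log2 difference was 0.29 (SE 0.22, 95% interval -0.23 to 0.81) in the fit without the filter on dim genes, 0.07 without targeted replicate 2, and 0.44 when non-targeted replicate 3 was left out. No detection call was used here.

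Plin1, the perilipin of mature fat cells, lay near the limit for dim genes. It was at 6.58, 6.41 and 6.38 on targeted arrays and at 6.77, 6.27 and 6.73 on non-targeted arrays. The lowest array of all was non-targeted replicate 2, and all targeted arrays lay inside the non-targeted range. The log2 difference was -0.13 (SE 0.18, 95% interval -0.55 to 0.29), with -0.29 without non-targeted replicate 2 and -0.04 without non-targeted replicate 1. Plin2, the perilipin of small droplets in most cell types, was at 8.14, 7.59 and 7.61 on targeted arrays. On non-targeted arrays Plin2 spread from 8.53 in replicate 1 through 7.99 in replicate 2 to 7.23 in replicate 3, so that this group held both the highest and the lowest array. The log2 difference of Plin2 was -0.14 (SE 0.33, 95% interval -0.90 to 0.63). It was -0.48 without non-targeted replicate 3 and turned to 0.17 without non-targeted replicate 1 and to 0.27 with array weights. No direction can be read for Plin2.

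Pnpla2, the lipase of the first step of triglyceride breakdown, separated the groups most clearly within the set. It was at 6.59, 6.93 and 7.00 on targeted arrays and at 7.21, 7.40 and 7.09 on non-targeted arrays. Its highest targeted array lay just below its lowest non-targeted array. The means were 6.84 ± 0.22 and 7.23 ± 0.16 (SD, n = 3 each), a log2 difference of -0.40 (SE 0.17, 95% interval -0.80 to 0.01), or 1.32-fold lower in targeted cells. It did not pass, and the difference ran from -0.48 without targeted replicate 3 to -0.27 without targeted replicate 1. Lipe, which acts after Pnpla2, was at 6.02, 6.41 and 6.50 on targeted arrays and at 6.67, 6.35 and 6.39 on non-targeted arrays. Targeted replicate 1 was low for both lipases, whereas the other targeted arrays of Lipe lay among the non-targeted ones. The log2 difference of Lipe was -0.16 (SE 0.18, 95% interval -0.59 to 0.27), with -0.02 without targeted replicate 1 and -0.25 without targeted replicate 3.

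**Figure D2:**
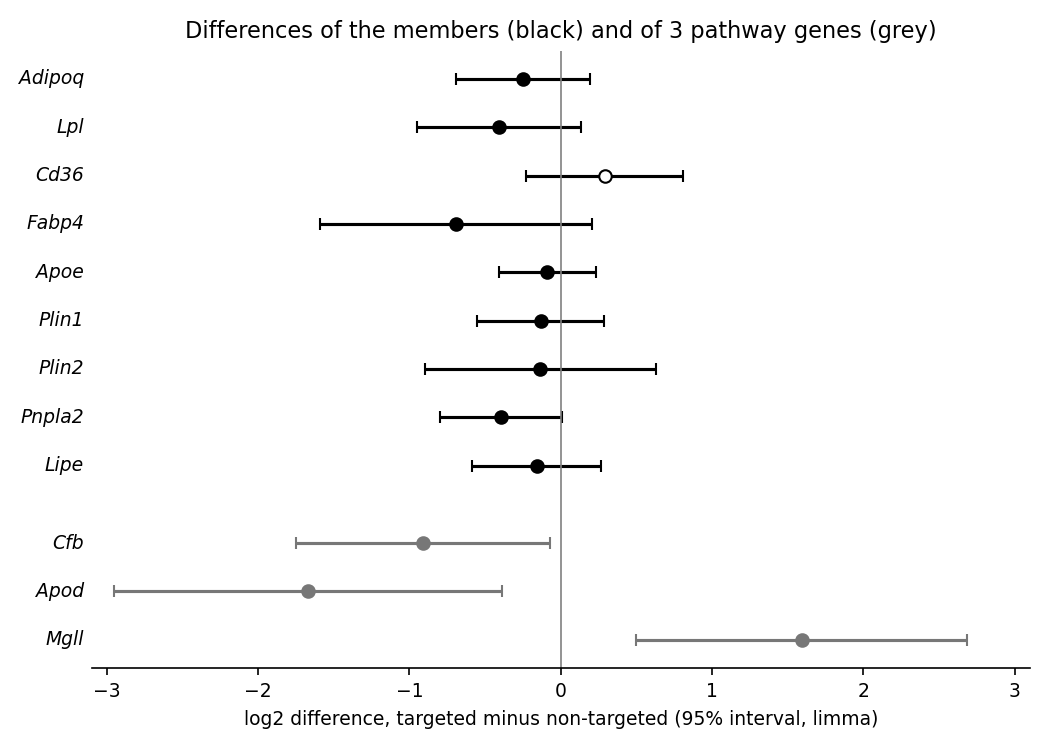
Log2 difference, targeted minus non-targeted, with the 95% interval of the limma fit, for 9 genes of the set in black and for Cfb, Apod and Mgll in grey. The open circle is Cd36, from the fit without the filter on dim genes. All 9 black intervals include 0. The grey genes were picked by an unadjusted p under 0.05 in the same limma fit, so their intervals exclude 0 by that choice. None of the grey genes passed after adjustment.

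The genes of the set did not vary across the arrays as one block. Relative to each gene's own mean over the 6 arrays, the mean of the 8 tested genes was 0.38 in non-targeted replicate 1, 0.10 in replicate 2 and -0.06 in replicate 3. It was 0.003, -0.13 and -0.30 in targeted replicates 1 to 3. Non-targeted replicate 1 was therefore highest and targeted replicate 3 lowest, and targeted replicate 1 lay between the non-targeted arrays. In targeted replicate 1, 5 of the 8 genes were above their own mean and the lipases were far below theirs, at -0.45 for Pnpla2 and -0.37 for Lipe. In targeted replicates 2 and 3, 1 of the 8 genes was above its mean.

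Across the 6 arrays Pearson's r between pairs of the 8 genes had a median of 0.22, and 9 of 28 pairs exceeded 0.5. Lpl and Fabp4 varied together most closely (r = 0.92), followed by Adipoq with Lpl (r = 0.86) and Adipoq with Fabp4 (r = 0.85). Plin2 followed Lpl (r = 0.82) and Fabp4 (r = 0.66). Pnpla2 had r = 0.84 with Apoe and r = 0.65 with Lipe, but r = 0.08 with Adipoq. The droplet coat genes Plin1 and Plin2 had r = 0.17 with each other. All these values come from the same 6 arrays, which share the group difference and any difference in RNA amount or quality.

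**Figure D3:**
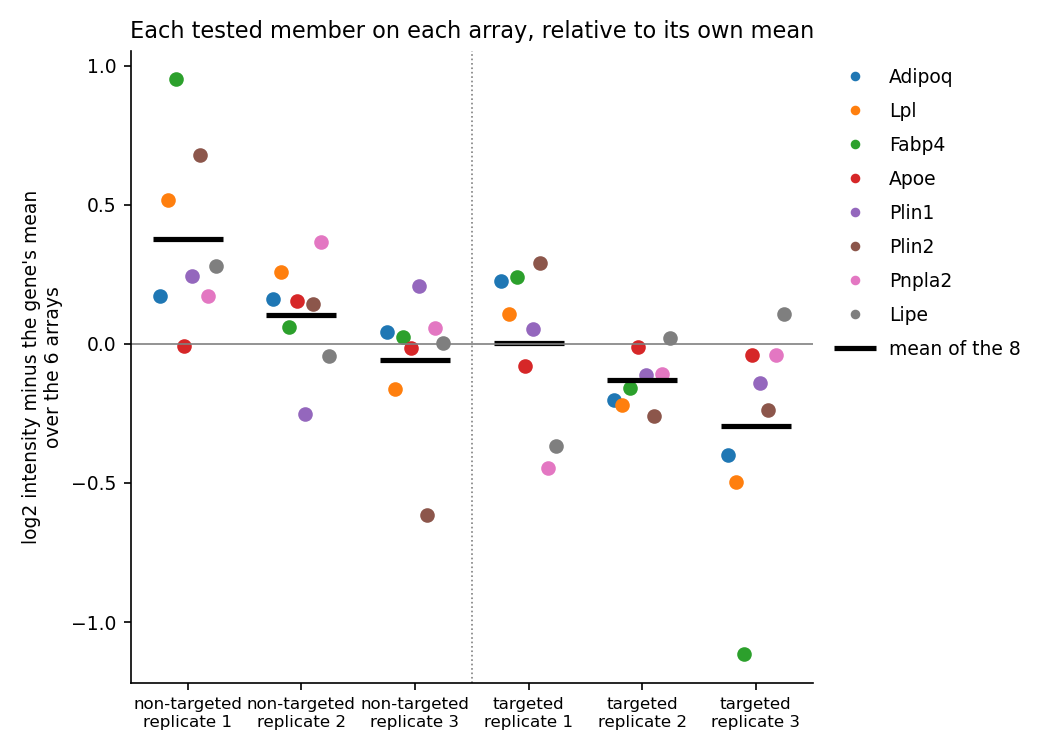
Each of the 8 tested genes on each array, as log2 intensity minus that gene's mean over the 6 arrays, with the black bar giving the mean of the 8 genes. Non-targeted replicate 1 has the highest mean (0.38) and targeted replicate 3 the lowest (-0.30), and in targeted replicate 1 Pnpla2 and Lipe lie far below the other genes.

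Likeness was searched among 12307 other tested genes that were annotated as protein-coding or had no annotated type. Those most like the mean of the 8 over the 6 arrays were Tysnd1 (r = 0.996), Hspa13 (r = 0.983), Cavin2 (r = 0.983), Pparg (r = 0.979) and Slc25a16 (r = 0.974). The mean was not scaled by spread, so genes of wide range weigh more in it. Around their own means Fabp4 ran from -1.12 to 0.95 and Apoe from -0.08 to 0.15. Pparg encodes the nuclear receptor that drives fat cell formation. It was at 9.11, 8.87 and 8.47 on targeted arrays and at 9.89, 9.10 and 8.89 on non-targeted arrays. The order of its arrays from high to low began with non-targeted replicate 1 and ended with targeted replicate 3, as for the mean of the 8. The genes most like Adipoq alone were Smco3 (r = 0.982), Lox (r = 0.981), which encodes a collagen cross-linking enzyme, and Pcdhb19 (r = 0.980). With 6 arrays and a search over 12307 genes, values this high describe these arrays only.

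Promoter sequence is shown for 4 of the tested genes, one adipokine, both droplet coat genes and the lipase whose arrays did not overlap, so that the sequence around their start sites can be compared. Each window runs from 250 bases before to 50 bases after a RefSeq start site in GRCm38.p6, printed 5′ to 3′ in the direction of the gene. Windows were held for 8 of the 10 genes. The Adipoq window is chr16:23146286-23146585 on the plus strand and that of Pnpla2 is chr7:141454938-141455237 on the plus strand. The Plin1 window is chr7:79732727-79733026 and that of Plin2 is chr4:86670010-86670309, both on the minus strand. Capitals mark matches on either strand to any of 8 motifs, of which the TATA box (TATAAA), the forkhead letters TGTTTAC, the PPAR direct repeat and the EBF palindrome had no match in these 4 windows.
Adipoq: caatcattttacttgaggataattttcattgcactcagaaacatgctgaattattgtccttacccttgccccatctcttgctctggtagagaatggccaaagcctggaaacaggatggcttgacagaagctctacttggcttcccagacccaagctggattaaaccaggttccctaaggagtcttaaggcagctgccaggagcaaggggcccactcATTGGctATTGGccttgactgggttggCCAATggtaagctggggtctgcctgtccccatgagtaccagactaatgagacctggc
Plin1: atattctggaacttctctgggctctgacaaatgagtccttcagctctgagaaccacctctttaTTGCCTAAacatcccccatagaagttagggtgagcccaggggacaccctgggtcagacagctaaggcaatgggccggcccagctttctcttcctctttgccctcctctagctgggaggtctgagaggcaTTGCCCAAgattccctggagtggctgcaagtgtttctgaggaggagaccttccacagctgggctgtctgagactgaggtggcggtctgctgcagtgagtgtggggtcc
Plin2: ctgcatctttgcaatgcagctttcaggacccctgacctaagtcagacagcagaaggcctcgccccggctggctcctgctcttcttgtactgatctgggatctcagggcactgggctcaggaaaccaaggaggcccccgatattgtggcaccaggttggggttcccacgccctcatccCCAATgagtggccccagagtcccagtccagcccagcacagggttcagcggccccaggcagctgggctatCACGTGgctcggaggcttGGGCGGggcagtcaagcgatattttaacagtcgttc
Pnpla2: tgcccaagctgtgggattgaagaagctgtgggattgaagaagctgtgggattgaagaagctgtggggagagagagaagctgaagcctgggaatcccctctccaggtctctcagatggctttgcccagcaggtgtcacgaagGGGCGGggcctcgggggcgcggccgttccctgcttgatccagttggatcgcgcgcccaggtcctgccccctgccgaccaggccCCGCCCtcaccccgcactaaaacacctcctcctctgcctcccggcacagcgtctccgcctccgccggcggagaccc

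The matches differed from gene to gene. Positions count the start site as 1 and the base before it as -1. The Adipoq window held 3 copies of CCAAT, the letters bound by the factor NF-Y, at positions from -34 on. CCAAT occurs in 37.4% of all 32851 windows. Plin1 held 2 matches to TTNNGCAA, a form of the C/EBP site, from position -187 and from position -58. TTNNGCAA occurs in 10.8% of all windows and in 1 of the 11 windows of the set. Plin2 held CACGTG, the E-box letters, across its start site, as well as 1 CCAAT and 1 GGGCGG, the GC box. Pnpla2 held 2 copies of GGGCGG, which occurs in 35.7% of all windows, and its window had 65.3% G and C bases against a median of 52.7%. The PPAR direct repeat, searched in its strict consensus form with 1 free base between the repeats, was found in 0 of the 11 windows of the set and in 0.0396% of all windows. Of the other motifs, CACGTG occurs in 7.15% of all windows, TATAAA in 13.6%, TGTTTAC in 3.65% and the EBF palindrome in 0.904%. In the printed windows no match overlapped another. A match describes letters in the window only.

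Of the 54 other genes listed for the same pathways, 48 had a value and 41 were tested. None passed limma's adjusted threshold. Of the 41, 24 were lower and 17 higher in targeted cells, and the median log2 difference was -0.03. An unadjusted p under 0.05 was found for 3 of the 41, Cfb, Apod and Mgll, beside 4.77% of all genes tested.

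Among adipokines, their receptors and genes of the alternative complement pathway, 7 of 9 tested genes were lower and 2 higher (median -0.33). Cfb, complement factor B, is the protein that adipsin cleaves. It was at 7.72, 8.38 and 8.58 on targeted arrays and at 8.56, 9.88 and 8.97 on non-targeted arrays. The groups overlapped by the narrow margin between targeted replicate 3 and non-targeted replicate 1, and the log2 difference was -0.91 (SE 0.36, limma adjusted p = 0.9998), or 1.88-fold lower. It was -1.20 without non-targeted replicate 1 and -0.54 without non-targeted replicate 2. Cdh13, a cell surface protein that binds adiponectin, was the one gene of this list with all targeted arrays below all non-targeted arrays, at 6.44 to 6.88 against 6.89 to 7.65, an order found in 5.76% of all genes tested. Of the adiponectin receptors, Adipor2 differed by -0.33 (SE 0.18) and Adipor1 by 0.12 (SE 0.15). Rarres2, the adipokine chemerin, differed by -0.44 (SE 0.25) from 11.72 ± 0.33 in non-targeted cells (SD, n = 3).

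Among genes of lipoprotein and fatty acid uptake, 9 of 16 tested genes were lower and 7 higher (median -0.01). Apod, a lipocalin that binds small lipids, had the largest negative difference of the pathway genes. It was at 7.51, 7.73 and 7.14 on targeted arrays and at 7.76, 10.21 and 9.41 on non-targeted arrays. All targeted arrays were lower, as for 5.76% of all genes tested, but non-targeted replicate 1 was only just above the highest of them. The log2 difference of Apod was -1.67 (SE 0.55, limma adjusted p = 0.947), or 3.18-fold, and leaving out single arrays moved it from -1.12 without non-targeted replicate 2 to -2.35 without non-targeted replicate 1. Gpihbp1, which anchors the Lpl protein to capillaries, differed by 0.07 (SE 0.23), Lmf1, which helps it fold, by -0.001 (SE 0.19) and Angptl4, which inhibits it, by -0.02 (SE 0.24). Fabp5, a close relative of Fabp4, differed by -0.05 (SE 0.20), and the lipoprotein receptor gene Vldlr by 0.50 (SE 0.25).

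Among droplet and triglyceride turnover genes, 8 of 16 tested genes were lower and 8 higher (median -0.03). Mgll encodes monoglyceride lipase, which completes the breakdown that Pnpla2 and Lipe begin, and it had the largest positive difference of the pathway genes. It was at 9.25, 7.30 and 7.48 on targeted arrays and at 6.52, 6.47 and 6.27 on non-targeted arrays. All targeted arrays lay above all non-targeted arrays, an order found in 3.32% of all genes tested, and targeted replicate 1 stood far above the rest. The means were 8.01 ± 1.08 and 6.42 ± 0.13 (SD, n = 3 each). Mgll was 3.01-fold higher in targeted cells (log2 difference 1.59, SE 0.47, 95% interval 0.49 to 2.69, limma adjusted p = 0.864). Without targeted replicate 1 the log2 difference was 0.97. The activator and the inhibitor of Pnpla2, Abhd5 and G0s2, differed by 0.23 (SE 0.32) and by -0.17 (SE 0.15). The other perilipins differed by -0.31 (Plin3), 0.04 (Plin4) and -0.08 (Plin5).

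**Figure D4:**
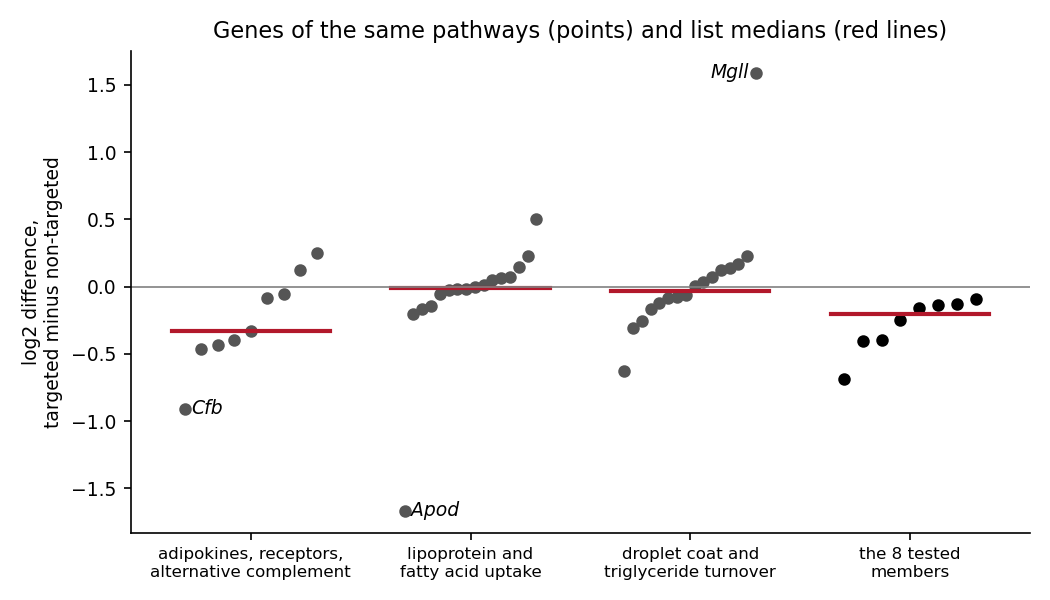
Log2 differences, targeted minus non-targeted, of the tested genes in 3 pathway lists and of the 8 tested genes of the set, each point 1 gene and each red line the median of a list. The medians are -0.33, -0.01 and -0.03 for the lists and -0.20 for the set, and Apod (-1.67) and Mgll (1.59) lie farthest from 0.

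Markers of mature fat cells had low values on every array. Of 7 such markers 6 had a value, and 3 of these (Lep, Cidea and Adig) were dim. Leptin (Lep) was at 5.54 to 5.86 on targeted arrays and at 5.52 to 5.85 on non-targeted arrays. Cidec, which fuses droplets in fat cells, was at 6.18 to 6.37 against 5.95 to 6.27. The dim marker Adig had all targeted arrays above the others, at 5.23 to 5.53 against 5.12 to 5.19, and the groups overlapped for the other 5 markers. The summed linear intensity of the 6 markers was 365 to 409 on targeted arrays and 340 to 432 on non-targeted arrays.

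For other marrow cell types the summed marker levels of the groups overlapped. Summed linear intensity of 9 macrophage markers was 606 to 774 on targeted arrays and 610 to 778 on non-targeted arrays, with 4 of 6 tested markers higher and 2 lower. For 8 endothelial markers it was 443 to 548 against 451 to 538, with 5 of the 8 dim, and for 4 megakaryocyte and platelet markers it was 219 to 386 against 299 to 506. Erythroid markers summed to 486 to 619 against 497 to 593 and B cell markers to 420 to 626 against 513 to 987. Of the markers of these 5 cell types, those whose groups did not overlap were the dim platelet gene Ppbp, at 4.55 to 4.90 against 5.05 to 5.46, and the B cell gene Pax5, at 6.12 to 6.22 against 6.03 to 6.10.

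In other marker lists the means lay mostly to one side. All 8 CAR cell markers had lower means in targeted cells, with a median log2 difference of -0.28, and their summed intensity was 19358 to 23585 against 22532 to 29433. Of these only Lepr had all targeted arrays below all non-targeted arrays, at 11.67 to 12.02 against 12.28 to 12.29. That order was found in 5.76% of all genes tested. All 4 tested osteoblast markers had higher means, with a median of 0.72, and sums of 8914 to 13992 against 7973 to 10087. Neutrophil markers summed to 881 on targeted replicate 1 and to 7719 and 11029 on the other targeted arrays, against 8654 to 13563 on non-targeted arrays, and 6 of 7 tested were lower. None of these markers passed limma's adjusted threshold, and no marker is at 0 because RMA values stay above it. The part of these shifts in the differences of the set was not tested.

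As checks of the labels, Dmp1 was at 9.89 to 11.28 on targeted and 6.91 to 7.51 on non-targeted arrays, and Cxcl12 was at 12.22 to 12.40 against 12.32 to 12.65. Array medians ran from 79.4 to 87.5 on the linear scale, and array pairs correlated across genes at 0.91 to 0.96. Xist was at 11.31 or above on the arrays numbered 1 and at 5.64 to 5.88 on the other 4, so each group held 1 array with a high level. With both arrays numbered 1 left out, the log2 difference was -0.40 for Adipoq, -0.41 for Lpl, -0.68 for Fabp4 and -0.28 for Pnpla2, while Lipe turned to 0.08, and none passed.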

How the data were processed

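RNA of 3 targeted and 3 non-targeted samples was hybridised to mogene 1.0 ST arrays (Affymetrix), 1 per sample. The deposited values were linear intensities per probe set, made by the authors. The submitters' processing notes name RMA and Affymetrix Expression Console 1.4. The annotation and genome build were not given in the sources used here. Log2 of each intensity was taken. Probe sets were named through the platform annotation, and symbols updated through Entrez identifiers in the RefSeq table of GRCm38.p6 (21698 of 21789 probe sets naming 1 gene). The brightest probe set stood for a gene, and the 33.3% of genes with the lowest mean were left out as dim.

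The test was limma's moderated fit (lmFit and eBayes, no covariate, two-sided; limma 3.58.1, R 4.3.3), with Benjamini-Hochberg adjustment over 13292 genes and a threshold of 0.05. The procedure was tested on simulated data. The number of arrays limits the precision. Members, pathway lists and marker lists were chosen with earlier results of these data known. Text names all members, pathway genes with an unadjusted p under 0.05, the genes most like the set, and Dmp1 and Cxcl12. Pathway genes named beyond these, and Xist, were picked for their role after values were seen. The search for like genes skipped predicted models and small RNAs. Promoters came from the RefSeq table. Replicate numbers were left out of the fit, since the labels do not say that a number marks a mouse. Deviations of same-numbered arrays correlated at -0.26, -0.12 and 0.07 across genes. Xist, in contrast, was high on the array numbered 1 of both groups and low on the others. With 3 arrays per group these values cannot decide whether the arrays are paired. Alternatives covered filters, scaling, variance priors, array weights, probe sets, replicate blocks and single arrays left out. The fit without both arrays numbered 1 was added after seeing the data. Figures were drawn with matplotlib 3.10.9.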

Additional observations from a re-analysis of the deposited data

How the results depend on the processing

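Over 18 alternative settings none of the members and none of the pathway genes passed limma's adjusted threshold. Among members that kept a value, Adipoq, Lpl, Plin1, Fabp4, Pnpla2 and Apoe were lower in targeted cells in every setting. Leaving out single arrays gave -0.48 to 0.17 for Plin2, the positive value without non-targeted replicate 1, and array weights gave 0.27. Lipe was 0.085 with both arrays numbered 1 left out. Of the 8 tested members 7 or 8 were lower without single arrays, and 6 of the 6 that passed the stricter filter (the brighter 50% of genes) were lower. Over all genes, 0 passed in the main setting and 1, Dmp1, with array weights or with a fixed replicate block. Same-numbered arrays may come from the same mouse, which the labels leave unsaid, and within all 3 number pairs the targeted array was lower for Lpl, Fabp4, Pnpla2 and Apoe. In pair 3 the log2 difference was only -0.03 for Apoe and -0.10 for Pnpla2. The share of all genes lower in all 3 pairs was not computed, so this order is a description only. The fixed block changed no call among members, and Fabp4 had the smallest adjusted p there, 0.963 (limma). With that block the SE of Fabp4 was 0.24 against 0.39 in the main fit, and that of Pnpla2 was 0.21 against 0.17. Genes with an unadjusted p under 0.05 numbered 634, with 2060 under array weights, 407 under a random replicate block, 408 (without non-targeted replicate 3) to 1116 (without targeted replicate 1) without single arrays and 1749 without both arrays numbered 1. Members with such a p numbered 0 in the main setting, 3 without targeted replicate 1 and 0 or 1 otherwise. The cause of these shifts was not tested. Low intensities limit what can be read for Cd36, Plin1 and Lipe.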
